A study of Mus musculus with 7 samples.

Results

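The 47 genes described here encode the enzymes that add methyl groups to histone lysines or to cytosine in DNA, and those that take them off, as expressed in mouse alveolar macrophages with and without Suz12. They are a listed set of histone lysine methyltransferases, histone demethylases, DNA methyltransferases with their partner Uhrf1, and TET dioxygenases, listed by name. The list was drawn up with earlier results of these data known. All 47 were found among the 27179 genes of the count table, and all 47 were among the 14436 genes with enough reads to test. Alveolar macrophages, the resident phagocytes of the air spaces, had been isolated by cell sorting from lungs of bone marrow chimeras. The recipients were C57BL/6-Ly5.1 mice that had received a lethal dose of radiation. They were given marrow that was 90% Ly5.2 donor and 10% wild type Ly5.1 competitor, and the donor was either wild type (4 libraries) or Suz12 cKO, a conditional knockout of Suz12 (3 libraries), all on a C57BL/6 background. Both groups therefore share irradiation, transplantation and the 10% of wild type marrow. The Cre line, the deleted exons, the ages of the mice and whether competitor cells were gated out are not stated in the labels used here. The libraries, described as biological replicates, are polyA RNA-seq with single-end reads of 85 bp, and carry between 48104653 and 79281431 counts each, more than the number of reads per sample that the submitters state.

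Suz12 is a core subunit of Polycomb repressive complex 2 (PRC2), which methylates lysine 27 of histone H3 (H3K27) and keeps developmental genes silent. Other enzymes write methyl marks with other meanings: H3K4 methylation marks promoters and enhancers, H3K36 and H3K79 methylation marks transcribed gene bodies, and H3K9 and DNA methylation mark silenced chromatin. Lysine demethylases of the LSD1 and Jumonji families take these marks off again, and TET enzymes oxidise methylated cytosine. In macrophages, Kdm6b (JMJD3) is known as a stimulus-induced H3K27 demethylase, and Tet2 as a regulator of inflammatory genes.

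The promoters of the 3 enzyme genes with the largest called differences are shown as a description only. These genes are Kdm5b and Smyd2, which were higher in Suz12 cKO cells, and Uhrf1, which was lower. Each sequence comes from RefSeq (GRCm38.p6) and lies within the 250 bases before an annotated start site. It is read 5′ to 3′ on the gene's own strand, with the exon bases of GENCODE M21 left out. Capitals mark the 1 match to the E2F-type motifs searched on both strands (TTTCCCGC, TTTCGCGC, TTTGCCGC and TTTGGCGC). Kdm5b is at chr1:134559928-134560170 on the plus strand, Smyd2 at chr1:189922364-189922541 on the minus strand, and the second start of Uhrf1 at chr17:56304063-56304312 on the plus strand. The Smyd2 sequence runs into the RefSeq span of the gene, which ends at chr1:189922495, since the start site used lies inside that span.
Kdm5b: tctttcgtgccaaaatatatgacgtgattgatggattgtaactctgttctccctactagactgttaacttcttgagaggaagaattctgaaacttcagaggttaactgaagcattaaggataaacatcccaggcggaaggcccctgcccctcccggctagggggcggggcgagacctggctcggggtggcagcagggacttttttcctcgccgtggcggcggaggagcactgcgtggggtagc
Smyd2: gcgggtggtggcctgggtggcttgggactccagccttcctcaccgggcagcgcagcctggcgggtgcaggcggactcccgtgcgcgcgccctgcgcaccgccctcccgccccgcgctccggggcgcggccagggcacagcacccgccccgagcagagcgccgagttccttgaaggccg
Uhrf1: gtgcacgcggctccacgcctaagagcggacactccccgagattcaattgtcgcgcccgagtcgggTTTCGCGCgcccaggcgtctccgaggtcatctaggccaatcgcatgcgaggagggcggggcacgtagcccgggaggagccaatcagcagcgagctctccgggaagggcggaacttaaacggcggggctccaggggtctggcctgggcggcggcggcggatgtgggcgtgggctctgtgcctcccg
The 3 windows differ in base composition. Over the printed bases, G and C make up 54.3% in Kdm5b, 78.1% in Smyd2 and 69.6% in Uhrf1. Such a motif was present in 1.86% of all 32851 promoter windows and in 3.20% of the 13672 windows of tested genes. By gene, it was present in any window of 3.86% of the 10818 tested genes with a window. It is not particular to Uhrf1 among the enzyme genes. A window of Dnmt1 (TTTCGCGC) and a window of Suv39h1 (TTTGCCGC) hold a match too, and neither gene was called. The match in Uhrf1 is a description of its letters, and binding there was not tested. Uhrf1 has a second window, at its first start (chr17:56303087-56303336), which holds no such match and is 59.6% G and C. A window was found for 33 of the 47 enzyme genes. Since this is less than 80% of them, no comparison of the promoters of the set was made.

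The targeted gene was examined first. Suz12 was measured at 56.5, 56.3, 73.9 and 68.9 CPM (counts scaled to 1000000 per library, with TMM factors) in wild type libraries 1 to 4, and at 22.1, 23.6 and 15.1 CPM in Suz12 cKO libraries 1 to 3. The groups did not overlap. The means were 63.9 ± 8.93 CPM (SD, n = 4) and 20.3 ± 4.53 CPM (SD, n = 3), and Suz12 fell by 1.65 on the log2 scale (SE 0.18, edgeR quasi-likelihood test with Benjamini-Hochberg adjusted p = 0.00134). Some Suz12 signal was thus left in every Suz12 cKO library. Markers of alveolar macrophages were abundant as a sum over 18 genes in all 7 libraries. In wild type the sum was 100680 to 130050 TPM (counts per length, scaled to the same sum in each library). In Suz12 cKO it was 123910 to 131690 TPM. Lyz2 and Chil3 made up most of it, at means of 77272 and 23161 TPM in wild type. Of the 18 genes, 7 were called higher in Suz12 cKO and 1 lower (44.4%, against 10.3% of all tested genes). The neutrophil markers Ly6g and Camp were listed at 0 in all libraries. The summed level of the 9 neutrophil genes was 117 to 184 TPM in wild type and 381 to 587 TPM in Suz12 cKO. Among the 6 tested, 4 were called higher in Suz12 cKO and 0 lower (66.7%, against 10.3% of all tested genes). They were S100a8, Retnlg, Cxcr2 and Csf3r. S100a8 alone was at 263, 424 and 275 TPM in Suz12 cKO libraries 1 to 3. The source of these transcripts was not tested. In bulk RNA, fewer cells of a type and less RNA per cell cannot be told apart.

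The libraries also differed within the groups. Hba-a2, a haemoglobin gene, was at 20.7 CPM in wild type 2 and at 80.0 and 55.2 CPM in Suz12 cKO 1 and 2, against 0.71, 1.96 and 0.845 CPM in the other wild type libraries and 0.728 CPM in Suz12 cKO 3. Sftpc, a surfactant gene of the lung epithelium, followed the same split. Wild type 2 and Suz12 cKO 1 and 2 are called the libraries high in tissue RNA below. The name rests on these marker genes and not on a label. Other genes, such as Nr4a1 below, follow the same split, and what sets the libraries apart was not tested. Values within each kind of library are given for the genes called and for those that differ most between the kinds. The high libraries hold 1 wild type library and the low ones 1 Suz12 cKO library, so a difference within either kind has no replicates in one genotype. Such differences are given below as values without a p-value. Calls from fits to each kind alone are counted only among the alternatives at the end, as weak evidence.

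Of the 47 enzyme genes, 2 were higher in Suz12 cKO (Kdm5b and Smyd2) and 2 were lower (Uhrf1 and Kmt2b), while 43 were not called at an adjusted p under 0.05. Among all 14436 tested genes, 6.28% were called higher and 4.02% lower, or 10.3% in either direction, so the 8.51% of the enzyme genes is near the background. The ranges of the 2 groups did not overlap in 11 enzyme genes (23.4%), with 6 all above and 5 all below wild type, against 25.5% of all tested genes, of which 14.1% were all above and 11.5% all below. The differences of the enzyme genes were small. Their median absolute log2 fold change was 0.14, against 0.28 over all tested genes and 0.19 over the 7254 tested genes of like level (9.5 to 125 CPM in wild type), of which 10.1% were called. The absolute log2 fold change was under 0.2 in 28 enzyme genes (59.6%, against 39.4% of all tested genes), between 0.2 and 0.5 in 11, and over 0.5 in 8.

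**Figure D1:**
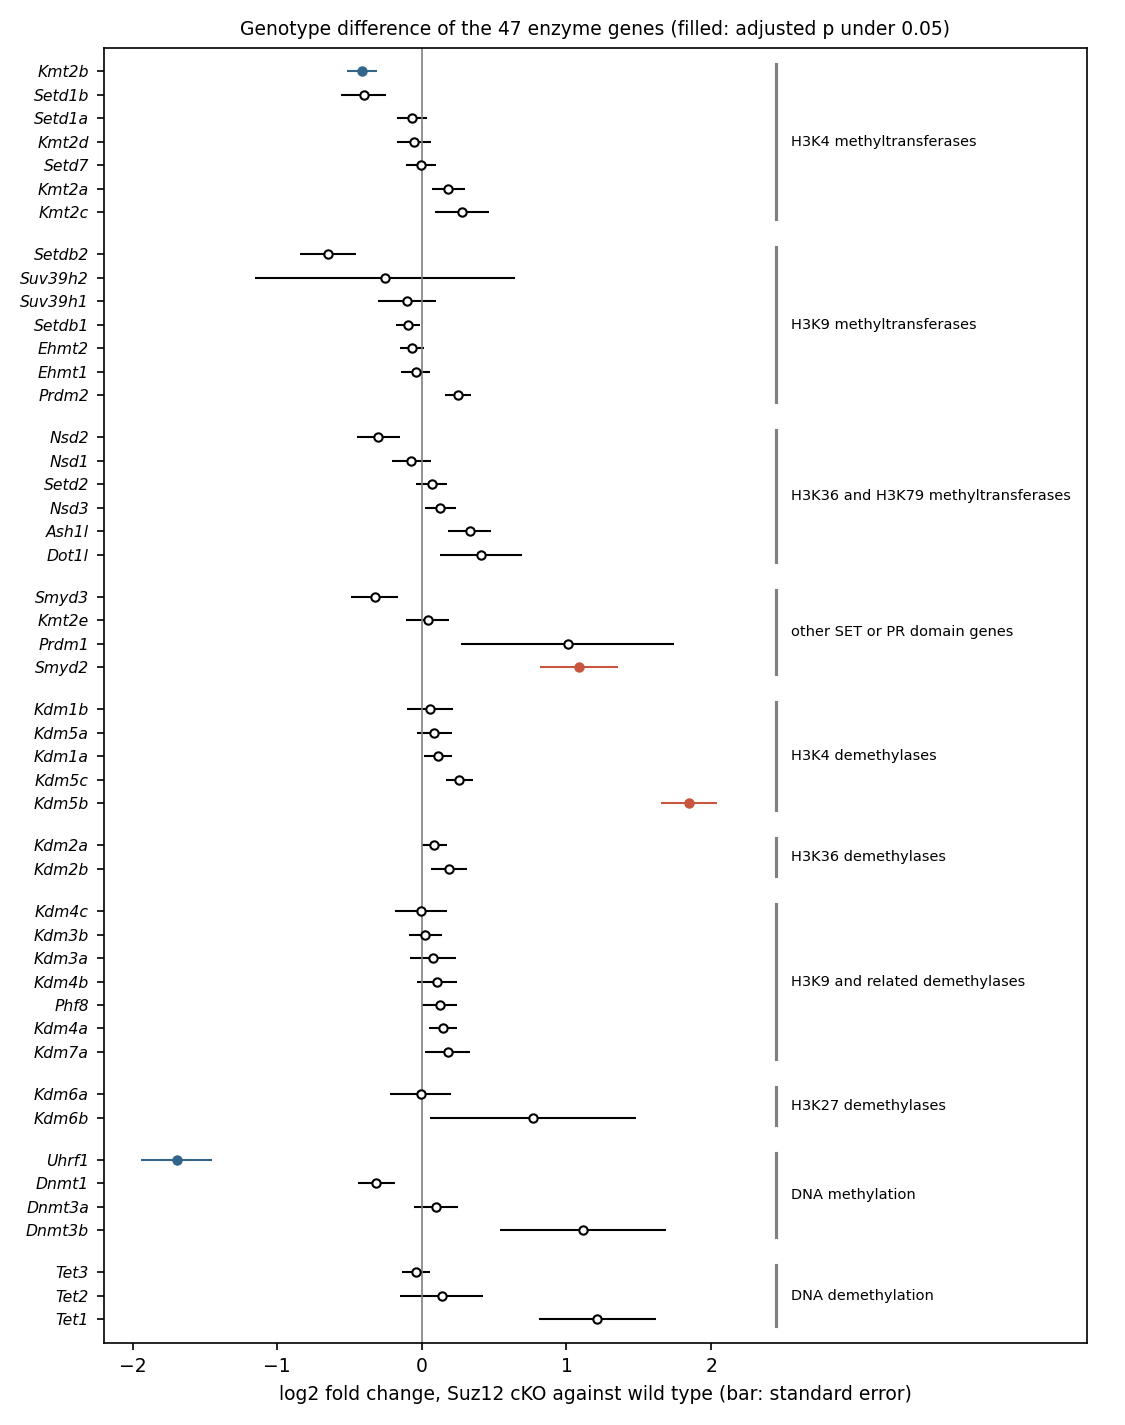
The log2 fold change of Suz12 cKO against wild type is plotted for each of the 47 enzyme genes by class, with bars for the standard error and filled points for genes called at an adjusted p under 0.05. Kdm5b and Smyd2 lie to the right at 1.85 and 1.09, Uhrf1 and Kmt2b to the left at -1.69 and -0.42, and most of the others lie near 0.

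Among the H3K4 demethylases, Kdm5b rose. Kdm5b (PLU-1, JARID1B; Entrez 75605, chr1:134560178-134632878) is a Jumonji enzyme that removes H3K4 methylation at promoters and is known as a corepressor. It was at 8.94, 8.73, 9.16 and 5.59 CPM in wild type 1 to 4 and at 26.5, 30.9 and 30.3 CPM in Suz12 cKO 1 to 3. Every Suz12 cKO library lay above every wild type library, and the 3 were close to each other although 2 were high in tissue RNA and 1 was low. The means were 8.10 ± 1.69 CPM (SD, n = 4) and 29.2 ± 2.40 CPM (SD, n = 3), a 3.6-fold difference (log2 fold change 1.85, SE 0.19, adjusted p = 0.00112). It was 1.92 within the libraries low in tissue RNA and 1.72 within those high in it. With a term for tissue RNA in the fit over all 7 libraries, it was 1.83 (adjusted p = 0.00117). Per length, Kdm5b went from 2.66 ± 0.556 to 10.1 ± 0.703 TPM, which moved it from place 44 to place 38 among the 47 enzyme genes.

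The paralogues of Kdm5b did not pass the test. Kdm5c, which removes H3K4 methylation as well and is X-linked, was at 98.7, 107, 116 and 114 CPM in wild type and at 142, 123 and 126 CPM in Suz12 cKO. Its ranges did not overlap, but the log2 fold change of 0.26 (SE 0.10) had an adjusted p of 0.132. Kdm5a was at 81.2 ± 8.68 and 86.3 ± 11.2 CPM (log2 fold change 0.09), with overlapping ranges. Even after its rise, Kdm5b was the lowest of the 3 per length: Kdm5a was at 17.1 TPM and Kdm5c at 45.2 TPM in Suz12 cKO. The share of Kdm5b in the summed TPM of Kdm5a, Kdm5b and Kdm5c went from 4.94% (3.45 to 5.88%) in wild type to 14.0% (11.8 to 15.2%) in Suz12 cKO. Kdm1a (LSD1) and Kdm1b (LSD2), flavin-dependent H3K4 demethylases, differed by 0.12 and 0.06 on the log2 scale. All 5 H3K4 demethylases thus had log2 fold changes above 0, with 1 called.

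The summed level of the 5 H3K4 demethylases was 97.8 to 106 TPM in wild type and 122 to 138 TPM in Suz12 cKO. Without Kdm5b the sums were 94.8 to 103 TPM and 112 to 128 TPM, so the ranges stayed apart when the called gene was left out. In CPM the sums of all 5 did not overlap either, with 259 to 291 in wild type and 316 to 352 in Suz12 cKO. Set against the 7 H3K4 methyltransferases, the demethylase sum was 0.868 ± 0.0435 TPM per TPM (0.807 to 0.904) in wild type and 1.09 ± 0.0738 (1.05 to 1.18) in Suz12 cKO. These sums are descriptions and were not tested.

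**Figure D2:**
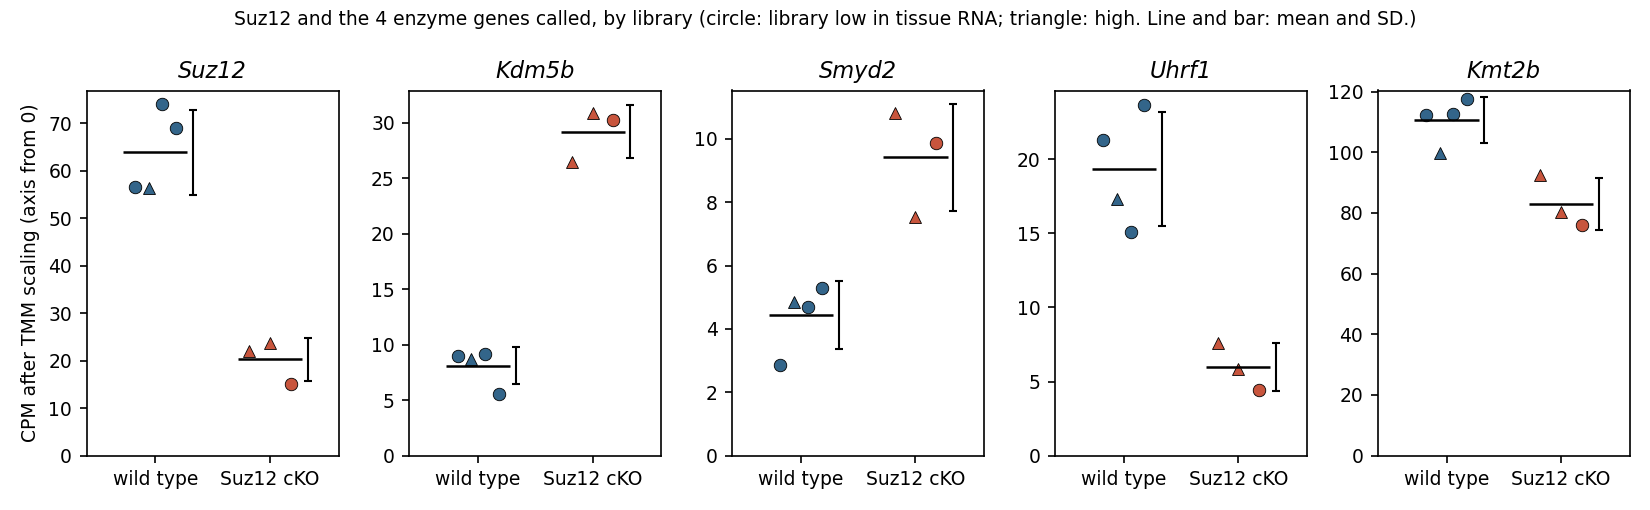
CPM after TMM scaling is plotted for each library for Suz12, Kdm5b, Smyd2, Uhrf1 and Kmt2b, with axes from 0, lines for the mean and bars for the SD. Wild type libraries sit above Suz12 cKO libraries for Suz12, Uhrf1 and Kmt2b and below them for Kdm5b and Smyd2, circles and triangles marking libraries low and high in tissue RNA.

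Among the 7 H3K4 methyltransferases, 1 was lower and none was higher, at a log2 fold change from -0.42 to 0.28. Kmt2b (Entrez 75410, chr7:30568855-30589056), a catalytic subunit of a COMPASS-like complex that methylates H3K4 at CpG-rich promoters, was at 112, 99.8, 113 and 118 CPM in wild type and 92.7, 80.2 and 76.0 CPM in Suz12 cKO. The groups did not overlap, but the gap between the lowest wild type and the highest Suz12 cKO library was small. The means of 111 ± 7.58 CPM (SD, n = 4) and 82.9 ± 8.67 CPM (SD, n = 3) gave a 1.33-fold lower level (log2 fold change -0.42, SE 0.10, adjusted p = 0.0365). In the 3 libraries with high tissue RNA the difference was -0.21, and in the 4 low ones it was -0.60. With a term for tissue RNA, it was -0.41 (adjusted p = 0.0497). Leaving out Suz12 cKO 2 or 3 or wild type 1, 3 or 4 ended the call, with values between -0.42 and -0.37 and adjusted p between 0.0739 and 0.132.

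Both genes next to Kmt2b were lower too. Zbtb32, a zinc finger repressor gene that lies 624 bases beyond the start of Kmt2b, fell by 2.58 (adjusted p = 0.000647), and Igflr1, a receptor gene 893 bases beyond its end on the opposite strand, fell by 1.79 (adjusted p = 0.0240). U2af1l4, the next gene after Igflr1, was at -0.42 with an adjusted p of 0.168. No annotated exon of either neighbour overlaps one of Kmt2b. Whether reads from these neighbours contributed to the Kmt2b counts was not tested. Called neighbours were not particular to Kmt2b. Among the 2 nearest tested genes on each side, Cenpf (-1.27) and Prox1 (3.83) were called near Smyd2. Ube2t (-1.70) was called near Kdm5b and Ptprs (2.01) near Uhrf1. These lay at least 88940 bases away, and only Prox1 changed in the direction of its enzyme gene.

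Setd1b, another catalytic H3K4 methyltransferase, was the next in this class. It was at 52.9, 50.3, 56.0 and 64.9 CPM in wild type and 50.7, 43.1 and 33.4 CPM in Suz12 cKO (log2 fold change -0.40, SE 0.15, adjusted p = 0.141), with overlapping ranges. Within the libraries low in tissue RNA it was at -0.81, and within the high ones at -0.10. Its paralogue Setd1a was at 56.9 ± 6.51 and 54.4 ± 0.907 CPM (-0.07), but 51.8% of its exon bases are shared with the gene model Gm49388 on the same strand, so its counts are uncertain. Kmt2a and Kmt2c, which methylate H3K4 at promoters and enhancers, were at 0.18 and 0.28. Kmt2d (-0.05) and Setd7 (-0.01), a monomethyltransferase of H3K4 and of other proteins, lay close to 0.

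Of the other SET and PR domain genes, Smyd2 rose. Smyd2 (Entrez 226830, chr1:189880492-189922495) methylates H3K36 and H3K4 and also proteins such as p53 and RB1. It was at 2.88, 4.86, 4.68 and 5.30 CPM in wild type and at 10.8, 7.52 and 9.88 CPM in Suz12 cKO. All Suz12 cKO libraries were above all wild type libraries, and the closest pair was wild type 4 and Suz12 cKO 2. The means were 4.43 ± 1.07 and 9.41 ± 1.70 CPM (SD, n = 4 and 3), or 5.71 and 12.7 TPM, a 2.13-fold difference (log2 fold change 1.09, SE 0.27, adjusted p = 0.0360). The difference was 1.19 in the libraries low in tissue RNA and 0.92 in the high ones. The call ended with a term for tissue RNA (1.07, adjusted p = 0.0509) and when any 1 library other than wild type 2 was left out (0.93 to 1.22, adjusted p between 0.0529 and 0.143). The unnamed model Gm37422 on the opposite strand overlaps 30.0% of the exon bases of Smyd2 and has no row in the count table, so reads from it cannot be told apart where strand was not used.

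Smyd3, a related methyltransferase with cytoplasmic as well as histone substrates, was lower in all Suz12 cKO libraries (10.6 to 12.8 CPM) than in all wild type libraries (13.0 to 17 CPM), but the log2 fold change of -0.33 had an adjusted p of 0.268. Kmt2e (MLL5), a SET domain protein without clear catalytic activity, was at 157 ± 19.0 and 161 ± 29.5 CPM. Prdm1 is given with the genes that follow the split by tissue RNA.

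In the DNA methylation class, Uhrf1 fell. Uhrf1 (Entrez 18140, chr17:56303337-56323486) recognises hemimethylated DNA behind the replication fork and recruits Dnmt1, the maintenance methyltransferase. It was at 21.3, 17.3, 15.1 and 23.7 CPM in wild type and 7.62, 5.86 and 4.45 CPM in Suz12 cKO. The highest Suz12 cKO library lay well below the lowest wild type one. The means of 19.3 ± 3.86 CPM (SD, n = 4) and 5.98 ± 1.59 CPM (SD, n = 3) gave a 3.24-fold lower level (log2 fold change -1.69, SE 0.24, adjusted p = 0.00392). The difference was -2.18 with low tissue RNA and -1.36 with high tissue RNA. With a term for tissue RNA, it was -1.78 (adjusted p = 0.00429).

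Dnmt1 itself was not called. It was at 124, 88.7, 117 and 110 CPM in wild type and 88.6, 79 and 97.2 CPM in Suz12 cKO, and wild type 2 lay inside the range of Suz12 cKO (log2 fold change -0.31, SE 0.13, adjusted p = 0.177). Without wild type 2 the difference was -0.42 and was called (adjusted p = 0.0282). The ratio of Uhrf1 to Dnmt1 was 0.307 ± 0.0640 TPM per TPM (0.223 to 0.372) in wild type and 0.119 ± 0.0357 (0.0790 to 0.149) in Suz12 cKO, with no overlap. The de novo methyltransferase Dnmt3a was at 100.4 ± 20.3 and 108 ± 8.83 CPM (log2 fold change 0.10). Dnmt3b, the other de novo enzyme, was scarce, at 0.983, 1.15, 1.02 and 0.495 CPM in wild type and 1.88, 2.54 and 1.51 CPM in Suz12 cKO. Its ranges did not overlap, but at this level the log2 fold change of 1.11 had an SE of 0.58 and an adjusted p of 0.282.

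Uhrf1 is also a gene of proliferating cells, and the cell cycle genes were lower in the same libraries. Of 42 listed cell cycle genes, 32 were called lower and none higher, with a median log2 fold change of -1.39 against 0.00 over all tested genes. The summed level of the list was 875 to 1040 TPM in wild type and 474 to 517 TPM in Suz12 cKO. Top2a and Mki67, which are high in dividing cells, fell by 1.67 (adjusted p = 0.000107) and 1.68 (adjusted p = 0.00045). Per 1000 TPM of the cell cycle list, Uhrf1 was at 11.8 ± 2.47 TPM (9.53 to 15.3) in wild type and 7.36 ± 2.35 TPM (5.03 to 9.72) in Suz12 cKO, and here the ranges overlapped. On the same measure Dnmt1 was at 38.8 ± 4.64 TPM (32.2 to 42.7) and 62.1 ± 4.45 TPM (57.1 to 65.5), with no overlap. The summed list fell between the groups, so any gene that held its level would rise on this measure. The mean level of Dnmt1 itself was lower in Suz12 cKO and was not called, so no gain of Dnmt1 follows. The part of the cell cycle genes in the fall of Uhrf1 was not tested.

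Of the DNA demethylation genes, none was called. Tet1 was the scarcest enzyme gene of the set per length, at 0.250 TPM in wild type. It was at 1.93, 2.46, 1.23 and 1.18 CPM in wild type and 4.54, 4.02 and 3.27 CPM in Suz12 cKO. The ranges did not overlap, with a log2 fold change of 1.21 (SE 0.41) and an adjusted p of 0.0988, and the call was reached when wild type 2 was left out (1.44, adjusted p = 0.0457). Even so, the share of Tet1 in the summed TPM of the 3 TET genes was 0.83% in wild type and 1.89% in Suz12 cKO, since Tet3 and Tet2 were at 16.9 and 12.6 TPM in wild type. Tet3 differed by -0.04 on the log2 scale.

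**Figure D3:**
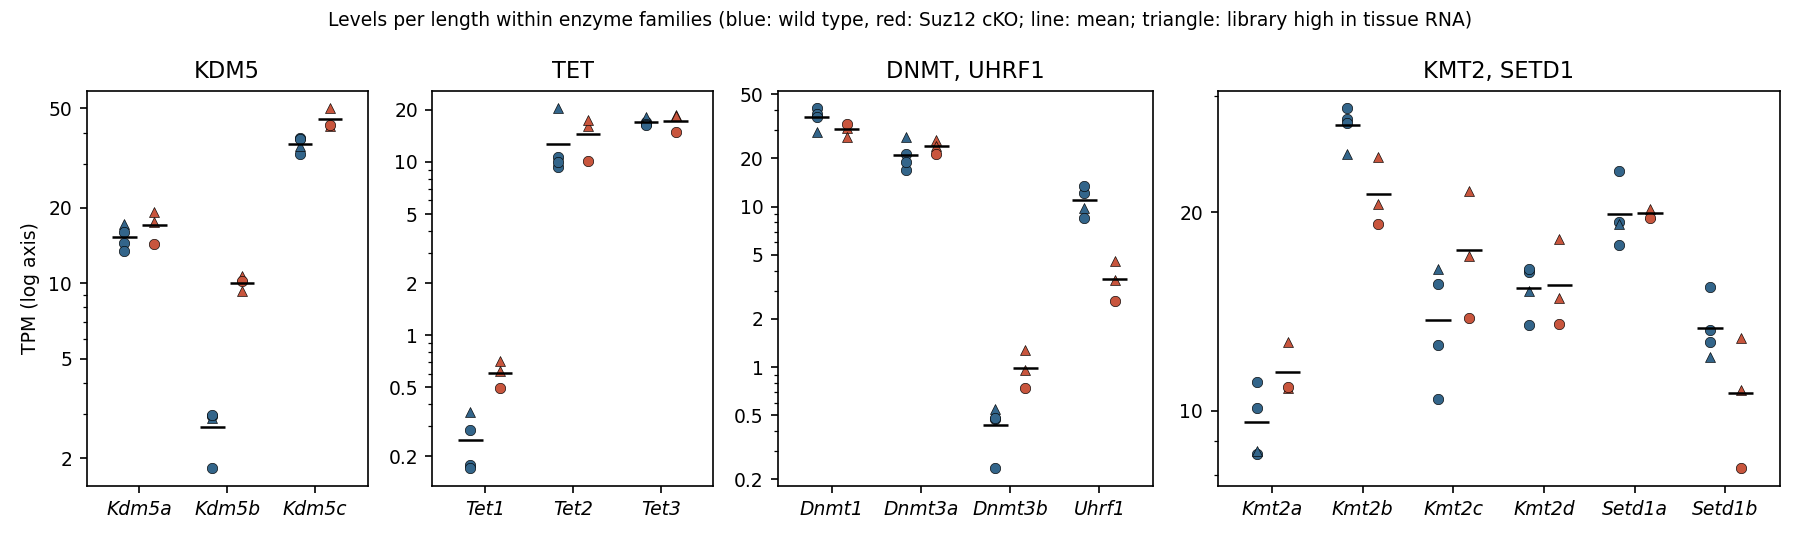
TPM is plotted on a log axis for each library within 4 enzyme families, wild type in blue and Suz12 cKO in red, with lines for the means and triangles for libraries high in tissue RNA. Kdm5b shifts while its paralogues Kdm5a and Kdm5c move little by comparison, and Uhrf1 shifts while its partner Dnmt1 moves less. Tet1 and Dnmt3b lie far below the other members of their families in both genotypes.

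No H3K9 methyltransferase was called, and 6 of the 7 had log2 fold changes below 0. Setdb2, which methylates H3K9 and is known in macrophages as an interferon-induced gene, came closest. It was at 15.3, 21.6, 13.8 and 15.8 CPM in wild type and 11.8, 10.4 and 9.74 CPM in Suz12 cKO, all below wild type (log2 fold change -0.65, SE 0.19, adjusted p = 0.0680). It was called with a term for tissue RNA in the fit (-0.78, adjusted p = 0.0199) and by DESeq2 (-0.63, adjusted p = 0.0445). It was at -0.64 in the libraries low in tissue RNA and -0.96 in the high ones. Prdm2 (RIZ1) was the one above 0, at 86.8, 94.2, 93.4 and 84.7 CPM in wild type and 114, 99.5 and 107 CPM in Suz12 cKO (0.25, SE 0.09, adjusted p = 0.118), and its ranges did not overlap either.

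Ehmt2 (G9a), which with Ehmt1 (GLP) writes H3K9 dimethylation, was the most abundant enzyme gene per length in both genotypes. It was at 86.1 ± 2.91 TPM in wild type and 86.2 ± 5.13 TPM in Suz12 cKO (log2 fold change -0.07 by the CPM-based fit). Ehmt1 (-0.04), Setdb1 (-0.10), which silences retroelements, and Suv39h1 (-0.10), which writes H3K9 trimethylation at pericentric heterochromatin, were near 0. The ranges of Setdb1 barely failed to overlap, 42.6 to 45.9 against 40.4 to 42.6 CPM, with an adjusted p of 0.553. Suv39h2 was scarce and uneven, at 2.76, 6.50, 2.11 and 0.124 CPM in wild type and 2.65, 2.04 and 2.53 CPM in Suz12 cKO, so that its log2 fold change of -0.26 had an SE of 0.90. The summed level of the 7 genes was 161 ± 4.17 TPM in wild type and 161 ± 8.0 TPM in Suz12 cKO.

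The 6 H3K36 and H3K79 methyltransferases gave no call, at log2 fold changes from -0.30 (Nsd2) to 0.41 (Dot1l). Setd2, the enzyme for H3K36 trimethylation, was at 90.5 ± 10.6 and 94.9 ± 4.22 CPM. Nsd1 and Nsd3, which write H3K36 dimethylation, were at -0.07 and 0.13, and Ash1l at 0.33 (SE 0.15, adjusted p = 0.211). Nsd2 was at 50.5, 46.9, 54.6 and 59.2 CPM in wild type and 42.7, 34.2 and 51.7 CPM in Suz12 cKO, with overlapping ranges and an adjusted p of 0.258.

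The H3K36 demethylases Kdm2a and Kdm2b, of which Kdm2b also belongs to a variant Polycomb repressive complex 1, were not called (0.09 and 0.19). Their summed level did not overlap between groups in TPM (33.8 to 37.4 against 38.3 to 42.0) but did in CPM (112 to 125 against 120 to 129.6), so no direction is given. The same holds for the 7 H3K9 and related demethylases, with 146 to 171 against 172 to 176 TPM but 426 to 505 against 496 to 502 CPM. None of these 7 was called, and their log2 fold changes lay in the narrow band from -0.01 (Kdm4c) to 0.18 (Kdm7a, which acts on H3K9 and H3K27). Kdm3a and Kdm3b, which remove H3K9 mono- and dimethylation, were at 0.07 and 0.02. Kdm4a and Kdm4b, which act on trimethylated H3K9 and H3K36, were at 0.15 and 0.11, and Phf8, which binds H3K4 methylation and removes H3K9 dimethylation, was at 0.12.

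The H3K27 demethylases, which remove the mark that PRC2 writes, were not called. Kdm6a (UTX) was at 42.5 ± 11.4 CPM in wild type and 42.3 ± 8.01 CPM in Suz12 cKO (log2 fold change -0.01, SE 0.21). Kdm6b was at 45.0, 320.0, 53.4 and 72.2 CPM in wild type and 296, 254 and 77.7 CPM in Suz12 cKO. The high values were those of wild type 2 and Suz12 cKO 1 and 2, and the other 4 libraries lay between 45.0 and 77.7 CPM, so the genotype difference of 0.77 had an SE of 0.71 (adjusted p = 0.581). Prdm1 (BLIMP1), a PR domain repressor of plasma cells and myeloid cells, had the same pattern: 32.2, 234, 43.4 and 47.7 CPM in wild type and 277, 206 and 56.0 CPM in Suz12 cKO (1.01, SE 0.74, adjusted p = 0.464).

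The genotype differences of both genes depended on wild type 2. Without it, Kdm6b was at 1.86 (adjusted p = 0.0179) and Prdm1 at 2.11 (adjusted p = 0.0175). Within the libraries high in tissue RNA they differed by -0.22 and 0.05, and within the low ones by 0.44 and 0.43. With a term for tissue RNA in the fit, Kdm6b was at 0.14 (adjusted p = 0.710) and Prdm1 at 0.26 (adjusted p = 0.387). Nr4a1, an immediate-early gene that rises fast when cells are disturbed, was at 113, 1506, 62.5 and 83.0 CPM in wild type and 1592, 1760 and 367 CPM in Suz12 cKO and was high in the same 3 libraries. The list of 12 monocyte and interstitial macrophage genes to which it belongs summed to 3170 TPM in wild type 2 and to 2947 and 3233 TPM in Suz12 cKO 1 and 2, against 467 to 486 TPM in the other wild type libraries and 1344 TPM in Suz12 cKO 3. Nr4a1 and Cd14 made up most of the sum in those 3 libraries (1264 and 1430 TPM in wild type 2). The list did not follow the split as a whole: Ccr2 was highest in Suz12 cKO 3 (100 CPM) and Fcgr1 lowest in wild type 2 (84.6 CPM).

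In 14 of the 47 enzyme genes (29.8%), all 3 libraries with high tissue RNA lay above all 4 with low tissue RNA, against 8.60% of all tested genes: Ash1l, Dot1l, Kmt2c, Kmt2e, Prdm1, Dnmt3a, Tet2, Tet3, Kdm2b, Kdm4c, Kdm5a, Kdm6a, Kdm6b and Kdm7a. Only Dnmt1 and Nsd2 were lower in each (4.26%, against 5.94% of all). Tet2 was at 41.3, 89.7, 48 and 44.6 CPM in wild type and 67.2, 73.9 and 43.3 CPM in Suz12 cKO. Dot1l, the H3K79 methyltransferase, was at 38.4, 67.6, 33.9 and 51.7 CPM in wild type and 83.3, 66.2 and 41.1 CPM in Suz12 cKO. With 2 of the 3 high libraries being Suz12 cKO, the split and the genotype are partly confounded. None of the 4 genes called between genotypes is in either list. Their genotype ranges do not overlap and each kind of library holds both genotypes, so none could be, and nothing follows from it. The part of tissue RNA in the levels of these genes was not tested.

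**Figure D4:**
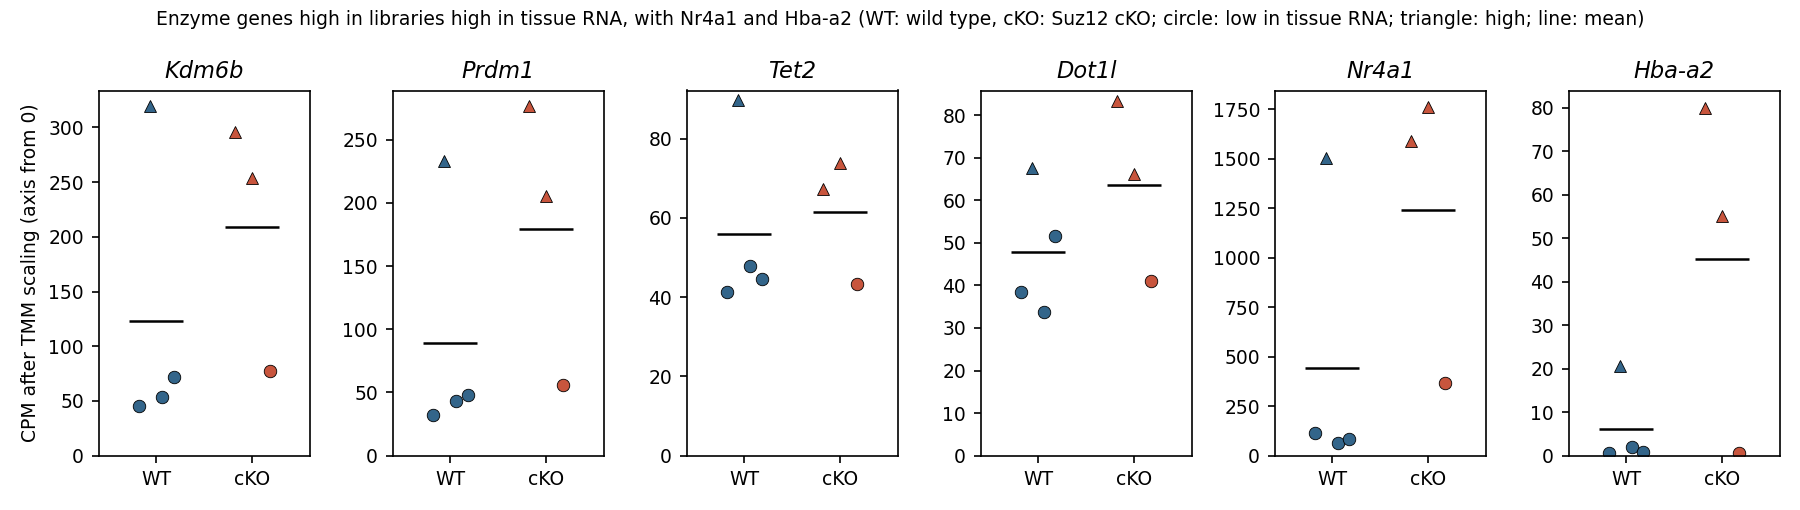
CPM after TMM scaling is plotted for each library for Kdm6b, Prdm1, Tet2, Dot1l, Nr4a1 and Hba-a2, with axes from 0, triangles for the 3 libraries high in tissue RNA and circles for the 4 low ones. In each panel the triangles of both genotypes lie above all circles, for Kdm6b at 254 to 320.0 CPM against 45.0 to 77.7 CPM.

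The levels of the set were otherwise broad but even. The median enzyme gene was at 16.7 TPM in wild type, and 36 of the 47 lay between 10 and 50 TPM. After Ehmt2 came Kmt2e (44.7 ± 5.46 TPM), Kdm6b (38.2 ± 41.3 TPM, set by wild type 2), Kdm3b (37.6 ± 4.42 TPM) and Kdm1a (37.0 ± 2.83 TPM). Their wild type ranges overlapped, but Kmt2e was above Kdm3b and Kdm1a in every wild type library. The scarcest were Tet1 (0.250 ± 0.0916 TPM), Dnmt3b (0.437 ± 0.138 TPM), Suv39h2 (1.39 ± 1.29 TPM), Kdm5b (2.66 ± 0.556 TPM) and Smyd2 (5.71 ± 1.36 TPM). The wild type ranges of Tet1 and Dnmt3b overlapped each other, although Dnmt3b was above Tet1 in every wild type library. The range of Suv39h2 overlapped those of both Dnmt3b and Kdm5b. Both genes that rose were thus among the 5 lowest in wild type.

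Partners of these enzymes were examined through lists of genes that share their complexes or substrates. In the PRC2 core, only Suz12 was called of 6. Ezh2, the main H3K27 methyltransferase, was at 17.8 ± 4.49 and 13.8 ± 1.2 CPM (log2 fold change -0.37, adjusted p = 0.346), and Ezh1 was at 0.24 (adjusted p = 0.240). Of the 14 COMPASS and MLL partner subunits, 1 was lower and none higher: Rbbp5, a core subunit needed for H3K4 methylation, went from 41.7 ± 3.32 to 28.4 ± 0.886 CPM (-0.55, SE 0.10, adjusted p = 0.0109). The median log2 fold change of that list was -0.28 (all tested genes 0.00), and 6 of the 14 were all below wild type, against 11.5% of all tested genes. For Rbbp5 the difference was -0.40 in the libraries high in tissue RNA and -0.66 in the low ones, and with a term for tissue RNA it was -0.53 (adjusted p = 0.0207).

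Of 12 CoREST and LSD1 partners, Gse1, a subunit of CoREST-like complexes, was called higher (62.1 ± 4.33 to 85.7 ± 3.71 CPM, 0.46, SE 0.09, adjusted p = 0.0126). Gins2, which was lower, overlaps 26.6% of its exon bases on the opposite strand. Of 15 partners and readers of H3K9 methylation, 2 were lower and none higher. Hells, a chromatin remodeller needed for DNA methylation, went from 9.59 ± 1.54 to 4.78 ± 1.61 CPM (-1.0, adjusted p = 0.0476), and Cbx3 (HP1 gamma), which binds methylated H3K9, from 24.7 ± 1.98 to 17.4 ± 2.07 CPM (-0.51, adjusted p = 0.0474). Both lost the call in most alternatives, including another size factor (adjusted p = 0.0507 and 0.0559).

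Of 17 tested genes of the list of other lysine methyltransferases and SET genes, 1 was lower: Kmt5a (SET8), which monomethylates H4K20 and is needed in S phase, went from 146 ± 7.11 to 104 ± 11.9 CPM (-0.49, SE 0.10, adjusted p = 0.0182). Of 13 other Jumonji genes, 1 was lower: Hr, a corepressor with a Jumonji domain, went from 221 ± 15.5 to 92.6 ± 35.7 CPM (-1.26, SE 0.24, adjusted p = 0.0136), and its call held in every alternative fitted. Of 17 methyl donor and cofactor genes, 1 was lower: Shmt1, the cytosolic serine hydroxymethyltransferase of folate metabolism, went from 9.78 ± 0.856 to 5.36 ± 0.959 CPM (-0.87, adjusted p = 0.0310). By edgeR, 0 of 16 methyl-CpG readers and repair genes (1 with an unadjusted p under 0.05, Mbd5, adjusted p = 0.0522) and 0 of 9 arginine methyltransferases (2 with an unadjusted p under 0.05, among them Prmt2, adjusted p = 0.0692) were called.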

How the data were processed

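Gene counts of 7 alveolar macrophage RNA-seq libraries were analysed. The deposited table holds raw read counts per gene (Entrez IDs), made with featureCounts on mm10 per the submitters' processing notes. The annotation, strand setting and treatment of multi-mapping reads were not stated in the labels used here. The deposited table also gives a gene length in bases (another column of the file), used here for TPM. Symbols were matched for 25275 of 27179 genes, and unmatched IDs made up 0.829% of all counts.

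Low genes were removed by filterByExpr (minimum count 10, minimum total 15), scaled by TMM and tested with edgeR 4.0.16 in R 4.3.3 (quasi-likelihood test, Suz12 cKO against wild type over all 7 libraries, no covariate, Benjamini-Hochberg adjustment over 14436 genes). Calls were made at an adjusted p under 0.05. CPM values are TMM-scaled. Gene coordinates are those of RefSeq, and exons are those of GENCODE M21 (GRCm38). The test was also run on simulated counts. These held no split by tissue RNA, unlike the data, so nothing is drawn from that run here. Alternatives were RLE size factors, DESeq2 1.42.0, other filters, each library left out, the replicate number as a block, and tissue RNA as a term or as separate fits.

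The text names Suz12, every called enzyme gene, the 3 uncalled ones of smallest p in each direction, the 5 highest and lowest by TPM, and in each partner list the called genes or the one of smallest p, others being given by class. Members and lists were chosen with earlier results of these data known. Dnmt3b, Smyd3, Setdb1, Suv39h2, Tet2, Dot1l and the genes that follow the split by tissue RNA were singled out after their values were seen. Depth limits scarce genes such as Dnmt3b and Tet1.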

Additional observations from a re-analysis of the deposited data

Results flagged for a closer look

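In the 4 wild type libraries, the highest or lowest value stood far from the other 3 (by Dixon's criterion) in 8 of 55 genes checked, and chance alone marks about 1 gene in 20. In 5 of the 8 the library was wild type 2, which is high in tissue RNA. Prdm1 was at 233.5 CPM there, against 32.19 to 47.67 CPM in the others. Kdm6b was at 320.0 CPM, against 44.96 to 72.23 CPM. Tet2 was at 89.72 CPM, against 41.28 to 47.96 CPM, and Kdm4c at 61.46 CPM, against 39.32 to 40.91 CPM. Hr was at 244.4 CPM, against 212.5 to 215.8 CPM. Kdm5b was low in wild type 4, at 5.588 CPM against 8.73 to 9.162 CPM. Kdm2a was high in wild type 4, at 103.8 CPM against 91.37 to 93.31 CPM. Kdm4a was low in wild type 3, at 70.15 CPM against 74.34 to 74.66 CPM.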

How the results depend on the processing

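Kdm5b, Uhrf1 and Suz12 kept their direction and their call in all 15 alternatives fitted, while Smyd2 lost the call in 10 and Kmt2b in 7 (2 of the 15 are the separate fits by tissue RNA). Of 60 values of the 4 called enzyme genes in other settings, 43 kept the call, 17 lost it and 0 changed sign. Of 645 values of the other 43, 8 reached the call. In the fit reported, 906 genes were higher and 580 lower, with 2 and 2 enzyme genes among them. DESeq2 called 1393 higher. Among the libraries low in tissue RNA alone 367 genes were lower, and among the high ones 328; 1 enzyme gene was higher in each, and also with a term for tissue RNA. In each of these separate fits 1 genotype has 1 library, assumed to vary like the rest, so a call made or lost there is weak evidence. The cause was not tested. Leaving out each library in turn gave 447 to 1515 genes higher, 268 to 885 lower, 1 to 5 enzyme genes higher and 1 to 3 lower. The largest counts came without wild type 2, where Dnmt1, Kdm6b, Prdm1 and Tet1 joined the 4. By CPM in place of TPM, 6 of the 10 highest enzyme genes were the same.

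With the replicate number as a block, 585 genes were higher and 278 lower, with 1 enzyme gene each (Kdm5b and Uhrf1), Smyd2 at 1.2 (adjusted p = 0.0938) and Kmt2b at -0.39 (adjusted p = 0.108). Same-numbered libraries of the 2 groups had deviations correlated at -0.041, 0.242 and 0.158, so the numbers were not taken to pair them.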
